A study of Mus musculus with 2 samples.

Results

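Gene-desert peaks of the transcription factor ATF4 were the peaks of its library whose summit lay outside every protein-coding gene, more than 1 kb from the end of any annotated gene and over 100 kb from either end of the nearest protein-coding gene. By this rule 1237 of the 7873 called peaks (15.7%, Clopper-Pearson 95% interval 14.9 to 16.5) were desert peaks. The peaks came from CUT&Tag on primary neurons cultured from cortex and hippocampus of embryonic C57BL/6 mice, with about 100000 cells per library. The ATF4 antibody gave 1 library. The control antibody, IgG, gave another, which was not analysed here. The labels name no treatment, and whether these neurons had received hemin, the heme product used as an injury elsewhere in the study, is not stated in the sources used here. With 1 library there was no replicate, no test between conditions could be made, and the intervals below cover counting error only. A peak list does not show the markers of a cell type, so the label of neurons was not checked.

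ATF4 is a basic leucine zipper factor that is translated when eIF2 alpha is phosphorylated under stress. It binds composite sites of C/EBP and cAMP-response type, often with a C/EBP partner, and switches on genes for amino acid supply, redox defence and, in prolonged stress, cell death. Gene deserts are long stretches without protein-coding genes. Some hold distant enhancers of developmental genes, and they also contain non-coding RNA genes, old pseudogenes and much repeated DNA. Mouse chromosomes have their centromere at the end where the numbering starts, and most of the satellite DNA there is missing from the assembly. In CUT&Tag an antibody-tethered transposase cuts and tags DNA, and reads that stack on a position are called as a peak.

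The height of a peak is given below as the number of fragments at its summit, solved from the deposited fold enrichment and p-value with the formulas of the peak caller MACS2. The same solution gives the local background, the number of fragments expected at that position. If the peaks were called on single reads, these numbers are reads. Fold enrichment is relative to the background the peak caller used. Whether that background came from the IgG library is not given in the sources used here, so the fold cannot be read as enrichment over IgG.

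Desert peaks were sparse for the space they had. The gene deserts took up 741 Mb, 27.9% of the space between the outermost annotated or peak positions of the chromosomes, and held 1.67 peaks per Mb (exact Poisson 95% interval 1.58 to 1.76). The 741 Mb included 47.1 Mb of chromosome Y with 5 members, and assembly gaps were not taken out of any space. Intergenic space 10 to 100 kb from protein-coding genes held 2.29 per Mb (2.17 to 2.42), that at 1 to 10 kb 2.86 (2.64 to 3.10), the inside of genes 2.94 (2.83 to 3.05), and the 1 kb around gene ends 11.5 (10.97 to 12.02). The interval of the deserts overlapped none of the others. The same order held for the lowest peaks, of 3 fragments, between the deserts (0.786 per Mb, 0.724 to 0.853), the space at 10 to 100 kb (1.07, 0.986 to 1.15) and gene ends (2.82, 2.57 to 3.09). For peaks of 6 or more fragments the gap to gene ends was wider, with 0.293 per Mb (0.255 to 0.334) in the deserts and 4.79 (4.46 to 5.14) at gene ends.

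**Figure D1:**
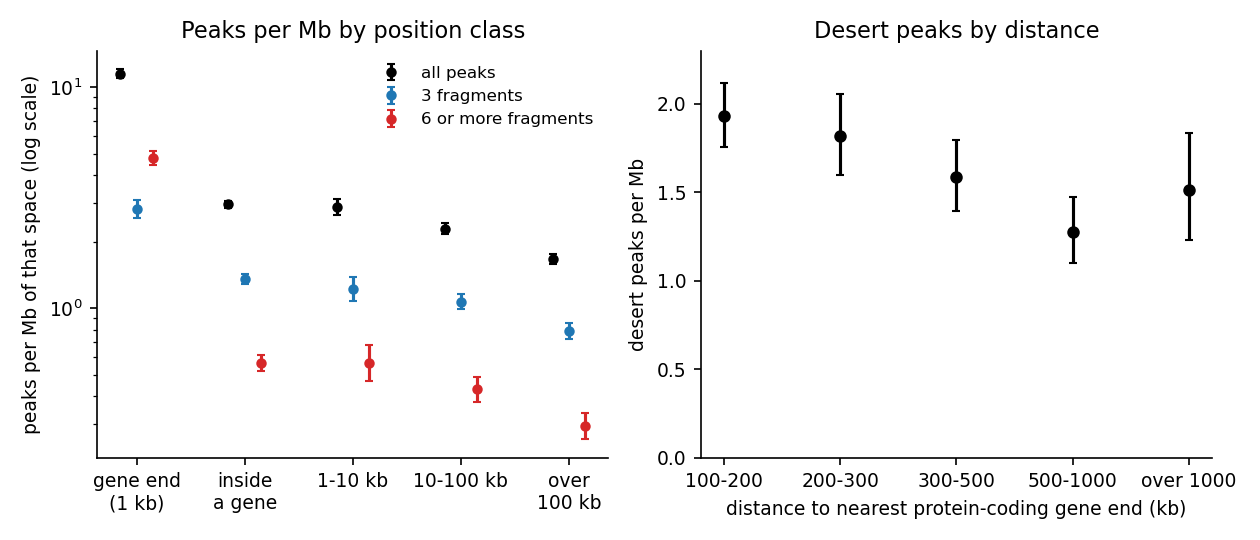
Left, peaks per Mb of space (log axis) by position class for all peaks, peaks of 3 fragments and peaks of 6 or more fragments; right, desert peaks per Mb by distance to the nearest protein-coding gene end, with exact Poisson 95% intervals. Desert space is lowest in each of the 3 series, with 1.67 peaks per Mb against 11.5 at gene ends.

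Within the deserts the density was lower at 500 to 1000 kb from genes than near the limit. It was 1.93 peaks per Mb (1.76 to 2.12) at 100 to 200 kb from a protein-coding gene, 1.82 (1.60 to 2.06) at 200 to 300 kb, 1.58 (1.39 to 1.79) at 300 to 500 kb, 1.28 (1.10 to 1.47) at 500 to 1000 kb and 1.51 (1.23 to 1.84) beyond. The fourth of these intervals lies below the first and the second. The last, beyond 1000 kb, overlaps all the others, so no steady fall with distance is shown. Neighbouring distances cannot be ranked. The member closest to the limit, at chr7:131865754-131865965 with 6 fragments, lay 100201 bp from Gpr26. The nearest excluded peak, at chr16:12861338-12861552 with 4 fragments, lay 99959 bp from the predicted gene LOC108167340. The most remote member, at chr14:90698010-90698255 with 8 fragments (3.45 to 15.8) and a fold enrichment of 7.91, was 2227 kb from Pcdh20 and 2316 kb from Pcdh9, both of which encode protocadherins, adhesion proteins of the neuronal surface.

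Chromosomes differed in their desert density. Over the 20 chromosomes with 20 or more members the median was 1.85 per Mb. Chromosome X was lowest with 52 peaks in 54.5 Mb, 0.954 per Mb (0.713 to 1.25), and its interval lay below those of 16 of the 19 autosomes, the exceptions being chromosomes 7, 10 and 18. Chromosome 9 was highest with 2.55 (1.96 to 3.26), which became 2.11 without the run of 11 peaks at its start described below, under the 2.14 of chromosome 19. Chromosome Y held 5 members in 47.1 Mb.

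Most desert peaks were low. A total of 583 of the 1237 (47.1%, 44.3 to 49.96) had 3 fragments at the summit, an exact Poisson interval of 0.619 to 8.77 fragments. The share was 41.0% (39.9 to 42.05) over all peaks, 46.6% (43.9 to 49.4) at 10 to 100 kb, 45.97% (44.1 to 47.8) inside genes and 24.5% (22.6 to 26.6) at gene ends. Members with 6 or more fragments numbered 217 (17.5%, 15.5 to 19.8), and 24.2% of all peaks passed this limit. This share was close to the 18.8% (16.7 to 21.0) at 10 to 100 kb and below the 41.7% (39.4 to 43.97) at gene ends. A -log10 q of at least 5 was reached by 203 members (16.4%, 14.4 to 18.6), beside 18.3% of all peaks. With distance the share of 6 or more fragments was 18.7% (15.2 to 22.6) at 100 to 200 kb, 16.1% (11.7 to 21.2) at 200 to 300 kb, 19.8% (14.99 to 25.3) at 300 to 500 kb, 17.5% (12.3 to 23.6) at 500 to 1000 kb and 10.9% (5.56 to 18.7), 11 of 101 peaks, beyond, and all these intervals overlap.

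A few desert peaks were very tall. Peaks of 20 or more fragments made up 2.102% of the members (26, 1.38 to 3.06) and 2.35% of all peaks. At 100 or more fragments the members stood higher, with 15 (1.21%, 0.680 to 1.99) beside 0.419% of all peaks and 0.448% (6 peaks, 0.165 to 0.973) at 10 to 100 kb, whose interval overlaps that of the deserts. They were 15 of the 33 such peaks in the list (45.5%). Gene ends, with more peaks in all, had 6 (0.322%, 0.118 to 0.699), and the intervals of the 2 shares overlap slightly. The 15 peaks lay at 7 loci. A run on chromosome 9 held 6 of the peaks, and the 9 elsewhere were 0.734% of the other 1226 members (0.336 to 1.39). Added over summits they held 8918 of the 14417 fragments of all members (61.9%). Desert peaks, 15.7% of the list, were 10 of the first 20 peaks when ranked by -log10 p and 19 of the first 100. Those ranked 3, 5, 14, 15 and 16 by p were all in the chromosome 9 run. Ranked by fold enrichment, desert peaks were 6 of the first 20 and 13 of the first 100. The counts of 19 and 13 in the first 100 lie near the 15.7%.

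The tallest locus was on chromosome 17, inside the long non-coding RNA gene 2700054A10Rik and between Tcp10c and Tcte2, a pair of genes of the mouse t-complex. The peak at chr17:13552169-13553129 had 2206 fragments (2115 to 2300) over a background of 156, a fold enrichment of 14.0. Its neighbour at chr17:13550674-13551295, whose summit was 1816 bp away, had 1064 (1001 to 1130) over an equal background and a fold of 6.77. The second peak was therefore 8th of the list by p-value and 876th by fold.

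The next locus lay on chromosome 2 in the desert between Lrrc4c, which encodes the netrin-G ligand of synapses, and Iftap, a gene of ciliary transport. The peak at chr2:98666552-98667313 had 1829 fragments (1746 to 1915) and a fold of 18.6. A second peak at chr2:98662236-98662427 had 328 (293 to 365), and with a background of 97.4 its fold was 3.34, so that it ranked 37th by p-value and 7724th by fold. Lrrc4c was 1035 kb from the taller peak and Iftap 2894 kb.

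A run of 11 peaks at the start of chromosome 9 formed the only group of 3 or more members with gaps of at most 10 kb. Its summits spanned 35541 bp, from position 3000529 to 3036070, and its first peak, at chr9:3000311-3000654, held the lowest position of the chromosome in the gene table and the peak list. In order of position the summits had 679, 299, 160, 213, 36, 31, 331, 1009, 47, 35 and 38 fragments, in sum 2878 or 20.0% of the fragments of all members. The heights came in blocks. The first 4 summits and the pair 22996 and 23924 bp from the start had 160 or more fragments, and the other 5 had 31 to 47. The background was 10.4 to 37.1 at the 6 tall summits and 3.33 to 4.70 at the 5 lower ones, and within the first 3 summits it did not follow the height. The tallest peak, chr9:3024042-3024656, had 1009 fragments (948 to 1073) and a fold of 26.9. No protein-coding gene lies before the run, and the nearer end of Alkbh8, the gene of a tRNA-modifying enzyme, lies 299 to 335 kb after its summits. Of the 12 members assigned to Alkbh8 the run supplied 11.

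**Figure D2:**
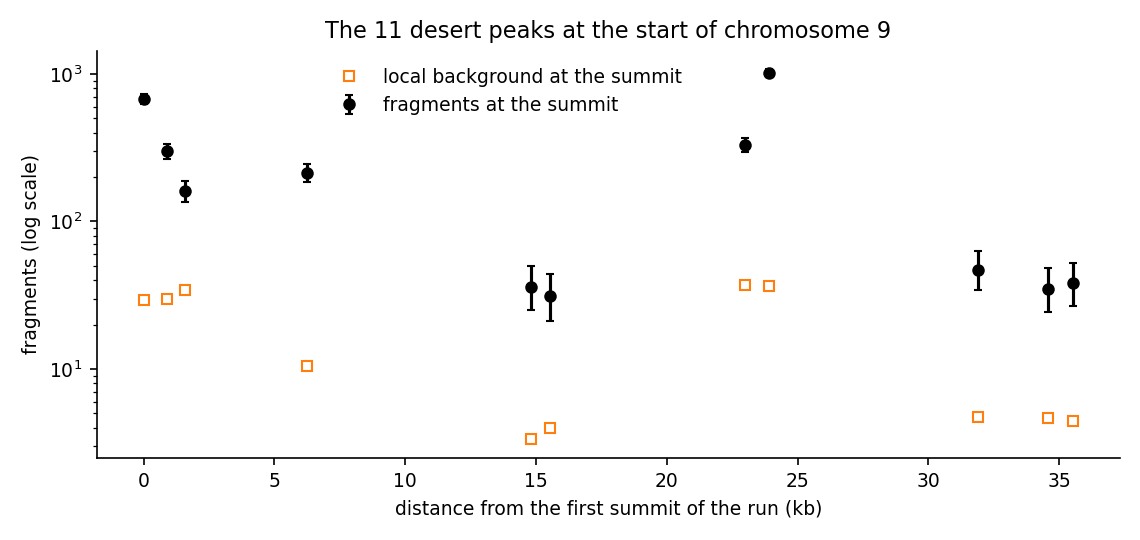
Fragments at the summit (filled circles, exact Poisson 95% intervals) and local background (open squares) of the 11 desert peaks at the start of chromosome 9, against distance from the first summit, on a log axis. The 6 tall summits have 160 to 1009 fragments and the 5 lower ones 31 to 47, with a background between 3.33 and 37.1.

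The run stopped, by the rule, at a microRNA gene. A further peak, chr9:3037907-3038207, with 30 fragments and a fold of 7.43, had its summit 658 bp from the end of Mir101c and was therefore no desert peak. Mir101c is the first annotated gene past the run, and its mature product is shown here because the gene sets where the run ends by the rule. RefSeq places it at chr9:3038680-3038698 (GRCm38.p6, minus strand), 2610 bp past the last summit of the run. The capitals mark the seed, bases 2 to 8, through which a microRNA pairs with its targets.
miR-101c: aCAGUACUgugauaacuga

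The other 4 tall loci held 5 peaks. On chromosome 12 the peak at chr12:3109873-3110098 had 201 fragments (174 to 231) over a background of 4.23, the largest fold of any desert peak (38.6) and the second largest of the list. It lay 79.8 kb from the lowest position of its chromosome and 137 kb before Rab10, which encodes a GTPase of membrane traffic. At chr14:19417215-19417407 and chr14:19418652-19418895 the summits had 175 (150 to 203) and 129 (108 to 153) fragments over the same background of 12.0. The last peak of chromosome X, chrX:170880985-170881295, had 179 (154 to 207) and a fold of 28.1, and lay 203 kb beyond Asmt, the gene of the last enzyme of melatonin synthesis. The last peak of chromosome 14, chr14:124801549-124801985, had 116 (95.9 to 139) and a fold of 23.5, and lay 124 kb beyond Fgf14, which encodes a fibroblast growth factor homologous factor that binds sodium channels.

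The median width of these tall peaks was below that at gene ends, though the ranges overlap. The 15, at 7 loci and with 6 of them in the chromosome 9 run, had widths of 192 to 961 bp with a median of 275. The 6 gene-end peaks of 100 or more fragments had a median of 850 bp (212 to 1074). The median was 330 bp for the 6 such peaks at 10 to 100 kb, and the 1 at 1 to 10 kb had 292 bp. Within the pairs on chromosomes 17 and 2 the intervals of fragments were far apart, while those of the pair on chromosome 14 overlapped. In the chromosome 9 run the 6 tall and 5 lower summits were split by their heights, so their separate intervals are no test of 2 groups. The 5 could not be ranked. How PCR copies were treated is not given in the sources used here, and without the IgG library a pile-up of the antibody and one of the background cannot be told apart. Repeats and mappability were not tested.

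Only 11 members had 20 to 99 fragments, 5 of them in the chromosome 9 run. The other 6 were not in a cluster. The peak at chr4:153153033-153153208 had 67 fragments (51.9 to 85.1) and a fold of 27.7, inside the long non-coding RNA gene Gm31055 and 220 kb from Ajap1, an adherens junction protein. On chromosome 2 the peak at chr2:57629503-57629713 had 33 (22.7 to 46.3) and a fold of 18.6, between Gpd2, the mitochondrial glycerol-3-phosphate dehydrogenase, and Galnt5, a glycosyltransferase. At chr12:93576993-93577206 a peak of 22 fragments (13.8 to 33.3) lay 682 kb from the predicted gene Gm40892, with Flrt2, an adhesion and guidance protein, 2115 kb away on its other side. A peak of 20 fragments at chr16:3235994-3236244 had a fold of 4.65 and lay 356 kb before the olfactory receptor gene Olfr161. With 19 fragments (11.4 to 29.7) the peak at chr5:111756831-111757031, inside the non-coding gene E130006D01Rik, had the 119th p-value of the list and was the last of the 20 members ranked by p.

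The widest desert peak stood apart from these. It covered 1525 bp at chr17:39843942-39845466 with 45 fragments over a background of 10.9, so that its fold was 3.87. Its summit lay 1040 bp from Rn18s-rs5, an annotated pseudogene related to 18S ribosomal RNA, 40 bp past the 1 kb limit of the rule. The protein-coding neighbours Esp15 and Esp38, which encode exocrine gland peptides of the pheromone system, were 200 and 105 kb away.

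Most desert peaks had no other desert peak within 10 kb. The same share was not computed for other peak classes or for random positions at this density, so it is not shown to be a trait of the deserts. A total of 77 members (6.22%, 4.94 to 7.72) had another within 10 kb, 11 of them in the chromosome 9 run and the rest in 33 pairs. The summits of a pair were 624 to 9968 bp apart, with a median of 4423 bp. In 29 of the 33 pairs both peaks had fewer than 10 fragments, and 3 pairs held a peak of 100 or more. With gaps of up to 50 kb there were, beside the chromosome 9 run, 10 groups of 3 or more, described here after their values were seen. They held 33 members and none exceeded 13 fragments. The largest, 5 peaks of 3 to 5 fragments over 92.4 kb of chromosome 16, lay between Eef2kmt, a lysine methyltransferase of elongation factor 2, and Rbfox1, a neuronal splicing factor. A group of 4 peaks of 3 to 5 fragments lay on chromosome 1 between Slc4a3, an anion exchanger, and Epha4, an axon guidance receptor. The tallest summit in any of the 10, of 13 fragments, was on chromosome 12 between Id2, an inhibitor of helix-loop-helix factors, and Rnf144a, a ubiquitin ligase.

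Positions near chromosome ends were counted from the outermost annotated gene or peak of each chromosome. Because peaks can set that position, the first peaks of chromosomes 9 and 12, the latter with 3 fragments, and the last peaks of chromosomes 14 and X are at an end by construction. Within 5 Mb of an end lay 103 members (8.33%, 6.85 to 10.0), and 7.15% of the desert space did so. Of these, 69 were at the starting end, 14 on chromosome 9, 10 on chromosome 3 and 9 on chromosome 16, and 34 at the other end. Within 1 Mb the share was 1.86% (23 members, 1.18 to 2.78) beside 1.11% of the space, and without the chromosome 9 run it was 0.979% (12 of 1226, 0.507 to 1.70).

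The tall peaks near an end lay at few loci. Of the 15 peaks of 100 or more fragments 9 lay within 1 Mb of an end, of which 6 were in the chromosome 9 run. These 9 lay at 4 loci, and at 3 of them, all but chromosome 12, a tall peak itself set the end. Of the remaining 1222 members 14 lay within 1 Mb (1.15%). Among members with 6 or more fragments 16 of 217 (7.37%, 4.27 to 11.7) lay there, and without the run 5 of 206 (2.43%, 0.793 to 5.57). Among members with 3 fragments it was 5 of 583 (0.858%, 0.279 to 1.99). The interval of the peaks with 6 or more fragments included the share of the space once the run was left out.

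**Figure D3:**
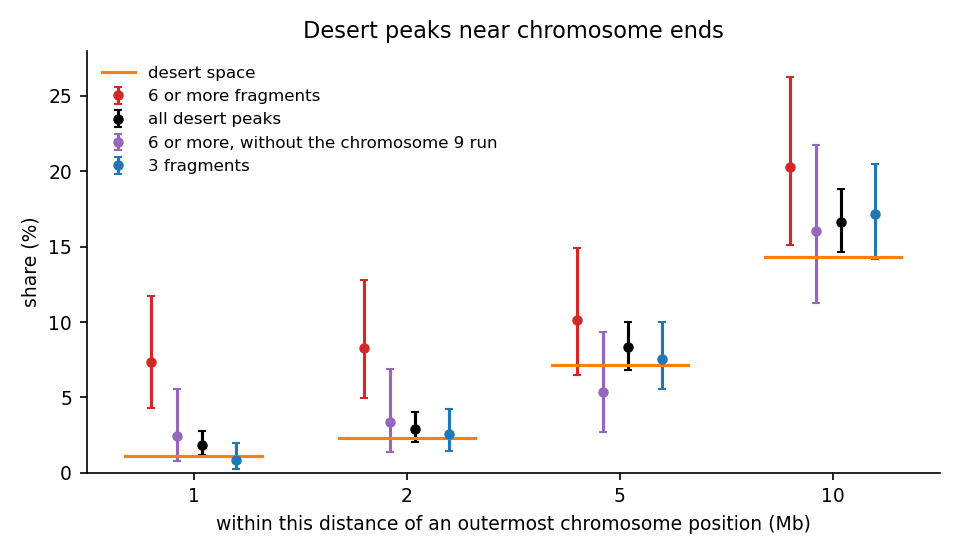
Share of desert peaks within 1, 2, 5 and 10 Mb of the outermost position at either end of a chromosome, with Clopper-Pearson 95% intervals; orange lines mark the share of desert space. Within 1 Mb the peaks of 6 or more fragments reach 7.37% with the chromosome 9 run and 2.43% without it, beside 1.11% of the space.

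Fold enrichment followed few steps in these low peaks. The 1237 members had 174 different fold values at 4 decimals, and the 583 peaks of 3 fragments had 17, all between 3.29 and 3.68. In 215 members (17.4%) the background was the lowest of the list, 0.0855 fragments within 0.0002, and 186 of these were peaks of 3 fragments. The median fold of the members was 4.20 (quartiles 3.68 and 5.12), beside 4.17 at 10 to 100 kb and 4.88 at gene ends.

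Fold enrichment and width were weakly related in the deserts. The median width was 198 bp (quartiles 179 and 233, range 165 to 1525), beside 203 bp at 10 to 100 kb and 243 bp (196 and 340) at gene ends. Across the members Spearman's rho between fold enrichment and width was 0.12, and it was 0.10 among those under 100 fragments. It was 0.28 among the 203 members with a -log10 q of at least 5, and Pearson's correlation of the log2 values of all members was also 0.28. It was 0.17 across peaks at 10 to 100 kb, 0.26 at 1 to 10 kb, 0.22 inside genes and 0.55 at gene ends. These are correlations across peaks of 1 library, which share its depth and are not replicates. At equal height the desert peaks were narrower than those at gene ends. With 3 fragments the medians were close, 195 and 200 bp. With 6 to 9 fragments they were 212 bp (164 peaks) and 285 bp (490), and with 10 to 19 fragments 267 bp (27) and 420 bp (199), where 7 of the 27 and 111 of the 199 exceeded 400 bp. Intergenic peaks at 10 to 100 kb had medians of 218 bp and 295 bp in the same classes. At 6 to 9 fragments 20 of those 186 peaks (10.8%) exceeded 400 bp, against 5 of the 164 desert peaks (3.05%) and 103 of the 490 at gene ends (21.0%).

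**Figure D4:**
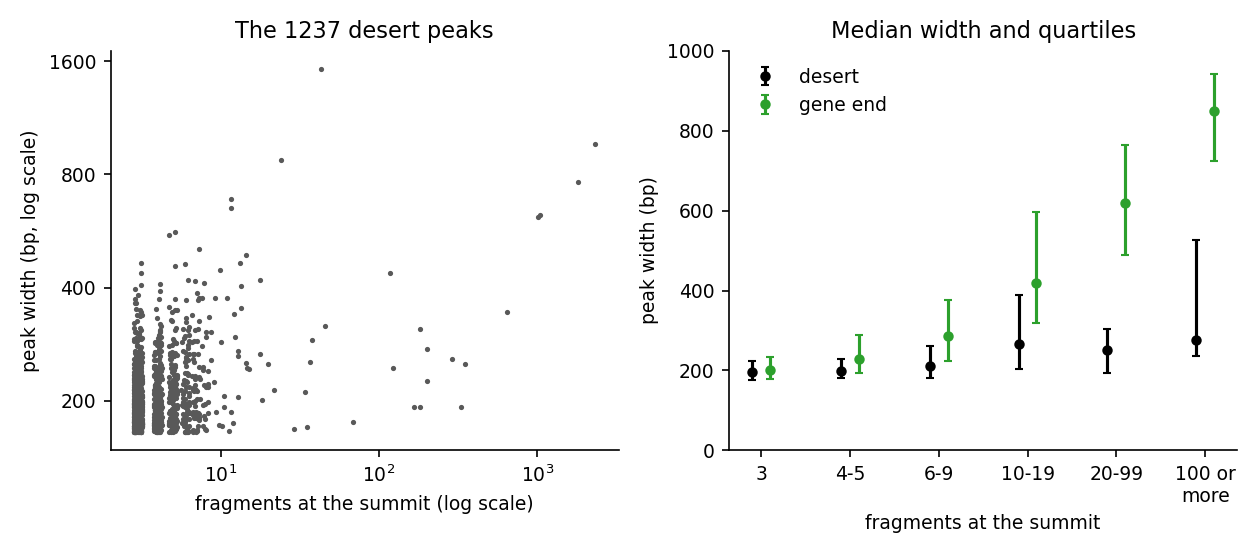
Left, width against fragments at the summit for the 1237 desert peaks (log axes, points spread slightly sideways); right, median width with quartiles by height for desert and gene-end peaks. At 10 to 19 fragments the medians are 267 and 420 bp, and at 100 or more 275 and 850 bp.

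Of the 27 desert peaks of 10 to 19 fragments, 4 (14.8%, 4.19 to 33.7) had as nearest gene a member of the lists counted below, which were nearest to 14.4% of the desert space. The peak at chr7:95967023-95967265 had 16 fragments (9.15 to 26.0) and a fold of 12.2, 204 kb from Tenm4, a teneurin that guides axons. At chr15:19316319-19316614 a peak of 13 fragments lay between the cadherin genes Cdh10 and Cdh12, 300 kb from Cdh10. A peak of 12 fragments at chr2:56529165-56529330 lay 578 kb from Nr4a2, a nuclear receptor of dopaminergic neurons. One of 10 fragments at chr14:107948701-107948871 lay 961 kb from Slitrk1, a synaptic adhesion protein. They are given as the tallest of their lists, and distance does not assign a peak to a gene.

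The genes nearest to the members were counted against lists chosen for this tissue and factor. Genes of cadherin, protocadherin and other adhesion and guidance families, listed by the start of their symbols and so not all neuronal (Adgrl4 and Cdh26 are among them), with Unc50, a Golgi protein, caught by its symbol alone and nearest to no member, were nearest to 124 members (10.0%, 8.41 to 11.8), at 47 genes, and were nearest to 11.4% of the desert space. The interval includes that share, although the list took a larger part of the deserts than of the space at 10 to 100 kb, 2.26%, where it was nearest to 1.64% of the peaks (1.03 to 2.48). Of the 124, 24 had 6 or more fragments (19.4%, 12.8 to 27.4), an interval that includes the 17.5% of all desert peaks. Pcdh7 and Pcdh17 had 7 members each, Pcdh18 had 6, and Cdh11, Flrt2, Cntnap5a and Cntnap5b had 5 each. For Pcdh7 this was 2.06 per Mb of desert nearest to it and for Pcdh17 2.29. Genes of developmental transcription factors were nearest to 39 members (3.15%, 2.25 to 4.28) and 2.92% of the space. Of the 39, 5 had 6 or more fragments (12.8%, 4.30 to 27.4), which includes it as well. The tallest after Nr4a2 had 7 fragments, near Satb1, a chromatin organiser, and Irx1, a homeobox factor.

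Classical ATF4 targets were nearest to about the share of members that the space gives. Of the 24 genes in the list 1 was nearest to a member, which gave 0.0808% of the members (0.00205 to 0.450) beside 0.0904% of the desert space. It was Stc2, the gene of stanniocalcin 2, with 3 fragments at chr11:31501877-31502136, 132 kb away. At 10 to 100 kb a listed target was nearest to 5 peaks (0.374%, 0.121 to 0.870) and to 0.169% of the space. A listed gene was the next one on either side of 5 members (0.404%, 0.131 to 0.941) and of 0.181% of the desert space, which lies within that interval. A peak of 24 fragments (15.4 to 35.7), a fold of 10.1 and a width of 872 bp at chr17:45873414-45874285 lay 143 kb from Vegfa, the vascular endothelial growth factor, and 140 kb from 1600014C23Rik. A second peak with 9 fragments (4.12 to 17.1) at chr17:45852021-45852395 lay in the same interval, 165 kb from Vegfa. At chr2:167816613-167816784 a peak of 10 fragments (4.80 to 18.4) was 126 kb from Cebpb, which encodes a binding partner of ATF4, and 114 kb from Ptpn1, a tyrosine phosphatase. A peak of 6 fragments (2.20 to 13.1) at chr3:49987173-49987374 lay 378 kb from Slc7a11, the cystine transporter, with Pcdh18 nearer at 230 kb.

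In all, 768 protein-coding genes were nearest to a member, 486 of them to a single one, and 17 to 5 or more. After Alkbh8 the highest counts were 9 for Dsel, an epimerase of dermatan sulfate, and 8 for Slc4a3. The density near Dsel was 4.26 per Mb of its 2.11 Mb of desert, with 3 to 18 fragments. Near Slc4a3 it was 10.1 per Mb of 0.793 Mb, near Klf4, a zinc finger factor, 10.1 per Mb of 0.493 Mb, and near Eef2kmt 23.8 per Mb of 0.210 Mb. The peaks of these last 3 genes had at most 6 fragments. All deserts together held 1.67 per Mb. The genes named here were picked for their counts or densities, and no intervals were computed for them. A small space gives a high density from few peaks, as with Slc30a5, 13.3 per Mb from 4 peaks in 0.301 Mb.

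The deserts were not without genes. A total of 162 members (13.1%, 11.3 to 15.1) lay inside an annotated gene that is not protein-coding, antigen receptor loci included, and 10.5% of the desert space did so. Of these members 149 were inside long non-coding RNA genes. Antigen receptor loci, whose gene segments the annotation does not count as protein-coding, held 6 members, 4 in Igk, 1 in Igh and 1 in Tcra, with 8 fragments at most. Members inside such genes had 6 or more fragments in 14.8% (9.73 to 21.2) and those outside every gene in 18.0% (15.7 to 20.4), and the intervals overlap.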

How the data were processed

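CUT&Tag libraries of 1 ATF4 and 1 IgG sample were grouped by the antibody in the labels. Only the peak list of the ATF4 library was analysed. The submitters' processing notes name FastQC, BWA, MACS2 2.1.2, deepTools and the build mm10 (GRCm38). The threshold and the use of a control are not given in the sources used here. For each peak the authors deposited its position, summit, fold enrichment (a ratio), display score, and p-value and q-value on a -log10 scale.

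Fragments and background were solved from fold, taken as fragments plus 1 over background plus 1, and the Poisson upper tail, within 0.001 of the -log10 p. All 7873 peaks had a solution. For 35, 3 of them members, several whole numbers did, and the smallest with a background not below the lowest of the list was taken. The procedure was tested on simulated data. Sequencing depth was not used here. Intervals are at 95%, exact Poisson for counts and Clopper-Pearson for shares.

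Distances were taken from the summit to gene ends of the RefSeq table of GRCm38.p6, with 49595 genes, 21774 of them protein-coding. A further 348 rows whose positions were out of order within their chromosome were left out, since these may be positions on other scaffolds. The space of each class was measured on points 1 kb apart.

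The members, lists and limits were chosen with earlier results of these data known. Regions named are the 20 members with the largest -log10 p, groups of 3 or more within 10 kb, the members at the limits and the extremes of distance, fold and width. Other regions in the text were picked with their values in view. The planned count of ATF4 motifs was not made for want of a genome sequence. Values were computed with scipy 1.17.1, pandas 2.3.3 and numpy 2.4.6 in Python 3.11.15 and drawn with matplotlib 3.10.9.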

Additional observations from a re-analysis of the deposited data

How the results depend on the processing

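Of the 38 alternative values computed for 9 results, 20 stayed within the interval or limit set for the main value. Only the correlation of fold and width has a direction, and it stayed positive in each of its alternatives. With a limit of 50 kb the density was 1.78 peaks per Mb. With 200 kb it was 1.55 over 787 members. With genes of every biotype setting the 100 kb distance, 312 members were left. A -log10 q of at least 5 left 203 members, with a median fold of 6.72, a median width of 215 bp, 8.37% in clusters, 11.3% within 5 Mb of a chromosome end and a rho of 0.28 between fold and width. These 203 include all 11 members of the chromosome 9 run, and their shares were not computed without it. Among members with 6 or more fragments the share within 5 Mb was 10.1% with the run and 5.34% without it. The share in clusters was 1.21% with gaps of 1 kb and 19.2% with 50 kb. The share near chromosome ends was 2.91% at 2 Mb and 16.7% at 10 Mb. The Pearson correlation of log2 fold and log2 width was 0.28. Members with 4 or more fragments were 52.9% and those with 20 or more 2.102%. A listed gene on either side was found for 25.3% in place of 13.3% by the nearest gene. Counts and shares under another limit count more or fewer peaks by construction; why the correlations moved was not tested. Leaving out the chromosome 9 run and keeping the gene rows out of position order were chosen after seeing the data; the first gave 7.50% near ends, 1.65 per Mb and 5.38% in clusters, and the second the same 1237 members. The 2 alternatives for the motif were not run. The heights of low peaks are imprecise, since a count of 3 fragments has an interval of 0.619 to 8.77. The part of sequencing depth in this was not tested. No paired analysis was possible because only 1 library was analysed.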
